A study of Homo sapiens with 12 samples.

Results

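Transcripts of 10 genes that restrain MAP kinase signalling were followed in THP-1 cells on 12 Affymetrix PrimeView arrays. THP-1 grew out of a human monocytic leukaemia and turns macrophage-like with the phorbol ester PMA. The members were chosen by gene symbol in the platform's gene table: the MAP kinase phosphatases DUSP1, DUSP2, DUSP4, DUSP5, DUSP6, DUSP7, DUSP8 and DUSP10 and the feedback inhibitors SPRY2 and SPRED1. Their symbols stand on 25 of 49395 probe sets, 1 of which also carries the symbol of another gene. All 10 genes, of 18132 with a probe set of their own, passed the filter on low values and were tested. Of their 24 probe sets with 1 symbol, 20 passed and 4, all of SPRED1, did not.

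The arrays form 4 groups of 3. Cells labelled 40 C were set against cells labelled 37 C, after 48 hours in 100 ng/ml PMA and then up to 24 hours at fever-like or normal temperature. Which harvest time the arrays represent is not stated. Cells labelled siThermomir, called inhibitor cells here, were set against cells labelled control. Per the labels' protocols these cells were kept at 40 °C for differentiation and then nucleofected. As described there, nucleofection delivered a hairpin microRNA inhibitor or its control with a plasmid for GFP, by which cells were sorted after 24 hours. The titles call these groups siRNA and WT, which the protocol does not explain. The protocol names several inhibitors and a non-human control; which of them an array received, and whether the control arrays received any, is not stated. All 4 groups are 1 cell line with PMA, and no label says that replicates were separate cultures. The p-values therefore rest on array-to-array spread that may be only technical. The microRNAs and the GFP were not measured.

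All values are log2 expression levels as deposited, with medians of 5.72 to 5.87 per array. Within a group, Pearson's r between arrays was 0.9939 to 0.9984. The 40 C label was checked on the chaperone transcripts HSPA1B and HSPH1, which were 3.06-fold and 2.07-fold higher at 40 °C than at 37 °C (HSPA1B may also read its near-identical copy). All 8 macrophage markers examined lay above the filter in every group. The list mean of those markers was 10.09 to 10.18 over the 40 °C arrays and 9.90 to 9.93 over the 37 °C arrays, and 9.56 to 9.66 with the inhibitor and 9.95 to 10.02 in controls. Promyelocyte and neutrophil markers were also present, at a list mean of 7.36 to 7.44 at 40 °C and 7.90 to 7.95 at 37 °C, and 5.93 to 6.04 with the inhibitor and 7.19 to 7.28 in controls. Both marker lists moved with the groups, and their part in the results below was not tested. In RNA pooled from many cells, sorted by GFP or not, fewer cells of a type and less RNA per cell cannot be told apart. Lymphocyte, erythroid and fibroblast or epithelial marker lists stayed at means of 3.94 to 6.18.

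MAP kinases (ERK, JNK and p38) carry signals from receptors to the nucleus and are switched on by phosphorylation of a threonine and a tyrosine in their activation loop. Dual specificity phosphatases of the MAP kinase phosphatase family remove both phosphates, and many of their genes are themselves induced by the pathway, which closes a negative feedback loop. DUSP1, DUSP2, DUSP4 and DUSP5 are nuclear, inducible enzymes. DUSP6 and DUSP7 are cytoplasmic and act mainly on ERK, while DUSP8 and DUSP10 act mainly on JNK and p38. Sprouty and Spred proteins act higher up, between receptors and RAF. In macrophages DUSP1 is best known for limiting p38 and JNK activity, and with it cytokine output, after Toll-like receptor stimulation.

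Promoter windows from RefSeq (GRCh38.p14), running from 250 bases before to 50 bases after the start site, were at hand for 8 of the 10 genes, in 11 windows. They were searched on both strands for the cyclic AMP response element TGACGTCA, the AP-1 site TGANTCA, a heat shock element GAANNTTC, the E-box CACGTG, the TATA box TATAAA and the CArG box of serum response factor. Only the windows of DUSP1, DUSP2 and DUSP8 held a match, and these 3 are shown for that reason. DUSP1 and DUSP8 share the cyclic AMP element. Whether any match goes with the expression values below was not tested. The 3 windows are on the minus strand, at chr5:172771146-172771445 for DUSP1, chr2:96145391-96145690 for DUSP2 and chr11:1572222-1572521 for DUSP8. Capitals mark the matches.
DUSP1: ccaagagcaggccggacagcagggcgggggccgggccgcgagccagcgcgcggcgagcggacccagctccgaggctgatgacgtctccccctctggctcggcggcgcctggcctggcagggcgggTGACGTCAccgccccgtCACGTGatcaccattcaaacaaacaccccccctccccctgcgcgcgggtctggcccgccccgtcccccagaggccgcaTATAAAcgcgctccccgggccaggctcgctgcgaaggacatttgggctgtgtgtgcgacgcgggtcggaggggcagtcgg
DUSP2: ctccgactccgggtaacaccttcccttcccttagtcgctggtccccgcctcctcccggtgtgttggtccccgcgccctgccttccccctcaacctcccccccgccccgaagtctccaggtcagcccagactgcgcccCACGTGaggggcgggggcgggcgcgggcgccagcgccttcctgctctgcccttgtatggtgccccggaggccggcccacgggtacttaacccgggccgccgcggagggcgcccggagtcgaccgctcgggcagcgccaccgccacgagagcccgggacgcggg
DUSP8: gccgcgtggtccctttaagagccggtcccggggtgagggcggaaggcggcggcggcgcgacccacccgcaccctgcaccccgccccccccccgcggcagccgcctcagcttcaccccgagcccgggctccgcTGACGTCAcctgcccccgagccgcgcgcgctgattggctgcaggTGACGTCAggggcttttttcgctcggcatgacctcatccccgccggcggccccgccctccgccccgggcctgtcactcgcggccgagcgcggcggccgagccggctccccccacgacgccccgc
The DUSP1 window held TGACGTCA once, CACGTG once and TATAAA once, the DUSP2 window CACGTG once, and the DUSP8 window TGACGTCA at 2 places. Of 35116 windows of that length in the table, 1.85% hold TGACGTCA, 7.26% CACGTG, 11.5% TATAAA, 7.71% TGANTCA, 6.77% GAANNTTC and 1.29% the CArG box. A match describes letters and not a bound site.

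The first comparison was of cells at fever-like and at normal temperature. At 40 °C all 4 nuclear phosphatases were higher, DUSP4 by 1.90-fold and DUSP2 by 1.69-fold. SPRY2 and SPRED1 were lower on the probe set tested for the gene. Of the 10 genes, 6 were called higher and 2 lower (limma, Benjamini-Hochberg adjusted p under 0.05 over 13909 genes), where 21.6% of all genes tested were called higher and 17.7% lower. The median log2 difference was 0.24 over the 10 genes and 0.01 over all genes. For 9 of the 10 the arrays of the groups did not overlap, as held for 49.5% of all genes. Without replicate 1 at 40 °C 3 of the 10 were called higher. With the level of the poly-A spikes (bacterial RNAs added before labelling, at 7.21 to 7.27 at 40 °C and 7.14 to 7.20 at 37 °C) as a covariate, DUSP2 and DUSP4 were called and the other 8 were not. Spike levels did not overlap between these groups, so spike level and group cannot be fully told apart in that fit. DUSP5, SPRY2 and SPRED1 kept differences of 0.25, −0.25 and −0.44 with larger errors (adjusted p = 0.0681, 0.0778 and 0.137), while those of DUSP1, DUSP7 and DUSP10 were 0.02, 0.12 and 0.10 (adjusted p = 0.882, 0.525 and 0.585).

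DUSP4, a nuclear phosphatase that acts on ERK and JNK, read 10.64, 10.57 and 10.56 on the 40 °C arrays, against 9.68, 9.71 and 9.60 on the 37 °C arrays. Every 40 °C array lay above every 37 °C array, by a mean log2 difference of 0.93 (SE 0.05, adjusted p = 1.14e-05). DUSP2, first known as a phosphatase of activated lymphocytes, read 8.33, 8.03 and 8.07 at 40 °C, against 7.37, 7.37 and 7.42 at 37 °C (difference 0.76, SE 0.08, adjusted p = 0.000214). The groups were again apart, with replicate 1 at 40 °C the highest. DUSP5, which binds and dephosphorylates nuclear ERK, read 8.95, 8.92 and 8.88 at 40 °C, against 8.60, 8.63 and 8.61 at 37 °C. Its arrays agree closely within a group, and the difference of 0.30 (SE 0.04, adjusted p = 0.000938) is far larger than their spread.

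DUSP1, the early-response phosphatase of p38 and JNK, showed a smaller difference that rests on single arrays. It read 8.54, 8.46 and 8.30 at 40 °C, against 8.09, 8.27 and 8.10 at 37 °C, a difference of 0.28 (SE 0.08, adjusted p = 0.0210). The lowest 40 °C array and the highest 37 °C array are only a little apart. The call was lost without replicate 1 or 2 at 40 °C (adjusted p = 0.0661 and 0.0662) and without replicate 1 or 3 at 37 °C (0.0722 and 0.0675). Of its 4 probe sets only the one with the highest signal was called, and the other 3 differed by 0.19, 0.14 and 0.003.

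Among the cytoplasmic ERK phosphatases the 2 members differed in outcome. DUSP6, a main feedback inhibitor of ERK, read 12.68, 12.72 and 12.73 at 40 °C, against 12.82, 12.74 and 12.76 at 37 °C. The groups are barely apart at their nearest arrays, the difference was −0.06 (95% interval −0.17 to 0.04, adjusted p = 0.318), and none of its 4 probe sets was called. DUSP7 read 7.59, 7.46 and 7.39 at 40 °C, against 7.27, 7.25 and 7.07 at 37 °C, and was called higher (difference 0.28, SE 0.07, adjusted p = 0.0166). Without replicate 1 at 40 °C its difference was 0.23 and the adjusted p was 0.0514. Their relative DUSP9, also an ERK phosphatase, was called lower at 6.79 ± 0.12 against 7.09 ± 0.08 (SD, n = 3 each).

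Of the JNK and p38 phosphatases among the members, DUSP10 was called and DUSP8 was not, each on the probe set tested for the gene. DUSP10 read 8.71, 8.55 and 8.54 at 40 °C, against 8.44, 8.44 and 8.32 at 37 °C, a difference of 0.20 (SE 0.06, adjusted p = 0.0367). This call was lost on leaving out any of 5 arrays, with adjusted p of 0.0917 without replicate 1 and 0.0534 without replicate 2 at 40 °C, and 0.0617, 0.0510 and 0.117 without replicates 1, 2 and 3 at 37 °C. Of its 4 probe sets 2 were called higher, and 1 differed by −0.01. DUSP8 read 6.28, 6.46 and 6.61 at 40 °C, against 6.55, 6.42 and 6.50 at 37 °C, and the groups overlapped (difference −0.04, 95% interval −0.23 to 0.15, adjusted p = 0.752). A fainter DUSP8 probe set was called lower by 0.27 (SE 0.09, adjusted p = 0.0450 over 31682 probe sets). DUSP16, the third of this kind and not among the 10, was called 1.81-fold higher, at 7.06 ± 0.12 against 6.20 ± 0.12 (SD, n = 3 each).

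Both feedback inhibitors were called lower at 40 °C on the probe set tested for the gene. SPRY2, which blocks signalling from receptor tyrosine kinases to RAS and ERK, read 11.55, 11.48 and 11.49 at 40 °C, against 11.76, 11.75 and 11.76 at 37 °C (difference −0.25, SE 0.04, adjusted p = 0.00242). SPRED1, which brings the RAS inactivator neurofibromin to the membrane, read 5.95, 5.64 and 5.67 at 40 °C, against 6.05, 6.17 and 6.25 at 37 °C (difference −0.40, SE 0.09, adjusted p = 0.00897). Neither gene's groups overlap, but the SPRED1 probe sets go different ways. The 4 others were all below the filter on their mean over 12 arrays. Of these, 2 had 40 °C arrays that all lay above the 37 °C arrays (differences 0.22 and 0.19). The latter, 11734827_at, was above the filter's signal of 4.48 on the temperature arrays, with means of 5.24 at 40 °C and 5.04 at 37 °C. The remaining probe sets differed by −0.21 and −0.17, with overlapping groups. The transcript of neurofibromin itself, NF1, was 1.46-fold lower. Of the 5 other Sprouty and Spred genes, SPRY1 was called higher (1.15-fold), and SPRY3, SPRY4, SPRED2 and SPRED3 differed by −0.15, −0.04, −0.08 and 0.01 without a call.

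**Figure D1:**
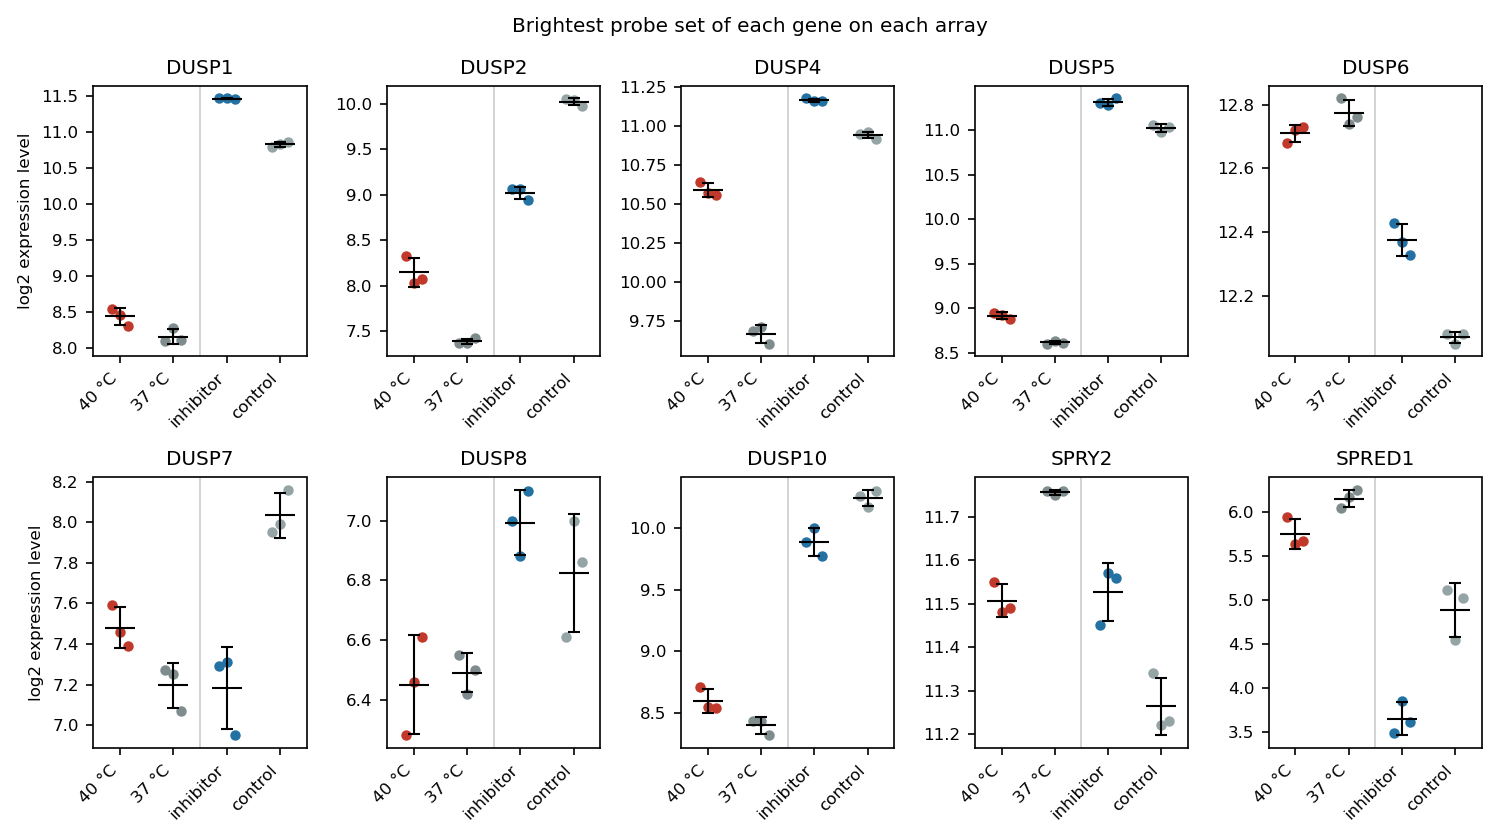
Log2 expression level (vertical axes, each panel on its own scale) of the probe set with the highest mean of each gene, on every array of the 4 groups; points are arrays, horizontal bars the mean and whiskers the SD of 3 arrays. DUSP4 reads 10.56 to 10.64 at 40 °C and 9.60 to 9.71 at 37 °C, and DUSP2 reads 8.94 to 9.06 with the inhibitor and 9.98 to 10.05 in controls.

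The plot of levels by array shows that spread within a group was small for most genes beside the steps between groups. DUSP8 was an exception, with groups that overlapped in both comparisons. Nearest arrays at 40 °C and 37 °C were also close for DUSP6 (12.73 and 12.74), DUSP1 (8.30 and 8.27) and DUSP10 (8.54 and 8.44).

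The second comparison was of the cells labelled siThermomir and their controls. With the inhibitor, DUSP1 was 1.55-fold higher and DUSP2 2.00-fold lower, so the nuclear phosphatases moved apart. DUSP6 and SPRY2 were modestly higher and DUSP7 lower. DUSP10 was called lower on the probe set tested for the gene while another of its probe sets was called higher, and SPRED1 was called lower at a signal below the filter. Of the 10 genes, 5 were called higher and 4 lower, where 25.7% of all genes tested were called higher and 19.6% lower. The 4 lower genes include SPRED1, which passed the filter only through the temperature experiment. Its groups are also among those counted next as not overlapping. The median difference was 0.20 over the 10 genes and 0.09 over all genes, and the groups did not overlap for 9 of the 10, as held for 54.1% of all genes. Without replicate 3 of the controls 3 were called higher. The poly-A spikes also differed, with a mean log2 signal of 5.28 to 5.69 with the inhibitor and 6.42 to 7.0 in controls. With the spike level as a covariate none of the 10 was called (differences −1.88 to 0.65, SEs 0.16 to 0.38, adjusted p 0.0737 to 0.788), and 3 of the 10 had an unadjusted p under 0.05. The spike levels of the groups do not overlap, so this fit cannot fully tell spike level and group apart.

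DUSP1 read 11.47, 11.47 and 11.46 on the inhibitor arrays, against 10.80, 10.83 and 10.87 on the control arrays (difference 0.63, SE 0.05, adjusted p = 0.000116). The groups are far apart for their spread, and a fainter probe set was also called higher, by 0.47. The remaining 2 differed by 0.20 and 0.15 and were not called. DUSP5 read 11.31, 11.28 and 11.36 with the inhibitor, against 11.06, 10.98 and 11.04 in controls (difference 0.29, SE 0.06, adjusted p = 0.00491). DUSP4 read 11.18, 11.16 and 11.16 with the inhibitor, against 10.95, 10.96 and 10.92 in controls (difference 0.22, SE 0.05, adjusted p = 0.0107). Both were modestly higher on every inhibitor array, and the DUSP4 call was lost without replicate 3 of the controls (0.21, adjusted p = 0.0514).

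DUSP2 went the other way. It read 9.06, 9.06 and 8.94 with the inhibitor, against 10.05, 10.04 and 9.98 in controls, a difference of −1.003 (SE 0.06, adjusted p = 3.05e-05). No array of 1 group came near the other group, and the gene has a single probe set here.

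DUSP6 read 12.43, 12.37 and 12.33 with the inhibitor, against 12.08, 12.05 and 12.08 in controls (difference 0.31, SE 0.06, adjusted p = 0.00353). All 4 of its probe sets were called higher, with differences of 0.28 to 0.33. DUSP7, the other cytoplasmic member, read 7.29, 7.31 and 6.95 with the inhibitor, against 7.95, 7.99 and 8.16 in controls. It was 1.80-fold lower (difference −0.85, SE 0.11, adjusted p = 0.000760), with replicate 3 the lowest of the inhibitor arrays. DUSP9 was not called, at 6.76 ± 0.12 against 6.89 ± 0.06 (SD, n = 3 each).

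DUSP10 depends on the probe set that is read. Its probe set with the highest mean, 11729170_x_at, read 9.89, 10.00 and 9.77 with the inhibitor, against 10.26, 10.17 and 10.30 in controls (difference −0.36, SE 0.08, adjusted p = 0.00719). Probe sets 11729169_a_at and 11751237_a_at were also called lower, by −0.43 and −0.41. Probe set 11731303_a_at was called higher: it read 9.91, 10.02 and 9.86 with the inhibitor, against 9.27, 9.16 and 9.24 in controls (difference 0.71, SE 0.07, adjusted p = 0.000267 over probe sets). The mean of the 4 differed by −0.12 (adjusted p = 0.210), so no single direction can be given for the gene. Which transcripts each probe set reads was not examined. DUSP8 read 7.0, 6.88 and 7.10 with the inhibitor, against 6.61, 7.0 and 6.86 in controls, with overlapping groups (difference 0.17, 95% interval −0.09 to 0.43, adjusted p = 0.241). DUSP16 differed by −0.17 and was not called.

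SPRY2 read 11.45, 11.57 and 11.56 with the inhibitor, against 11.34, 11.22 and 11.23 in controls (difference 0.26, SE 0.07, adjusted p = 0.0135). Its groups were apart, and the call was lost without replicate 3 of the controls (0.25, adjusted p = 0.0573). SPRED1 was near the lower limit of what was tested. It read 3.48, 3.85 and 3.61 with the inhibitor, against 5.11, 4.54 and 5.02 in controls (difference −1.24, SE 0.16, adjusted p = 0.000745). The inhibitor arrays lie below the filter's signal of 4.48 and the control arrays just above it, and the gene passed the filter on its mean over all 12 arrays only through the temperature experiment. The size of this difference is therefore uncertain. Of its 4 probe sets below the filter, 2 had inhibitor arrays that all lay below the controls (−0.44 and −0.53) and 1 had arrays all above them (0.21). Among relatives, SPRY1 was 1.61-fold lower and SPRY4 1.30-fold higher, and SPRY3, SPRED2 and SPRED3 differed by 0.24, 0.003 and 0.02 without a call. NF1 was 1.39-fold higher with the inhibitor, a value singled out after it was seen.

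**Figure D2:**
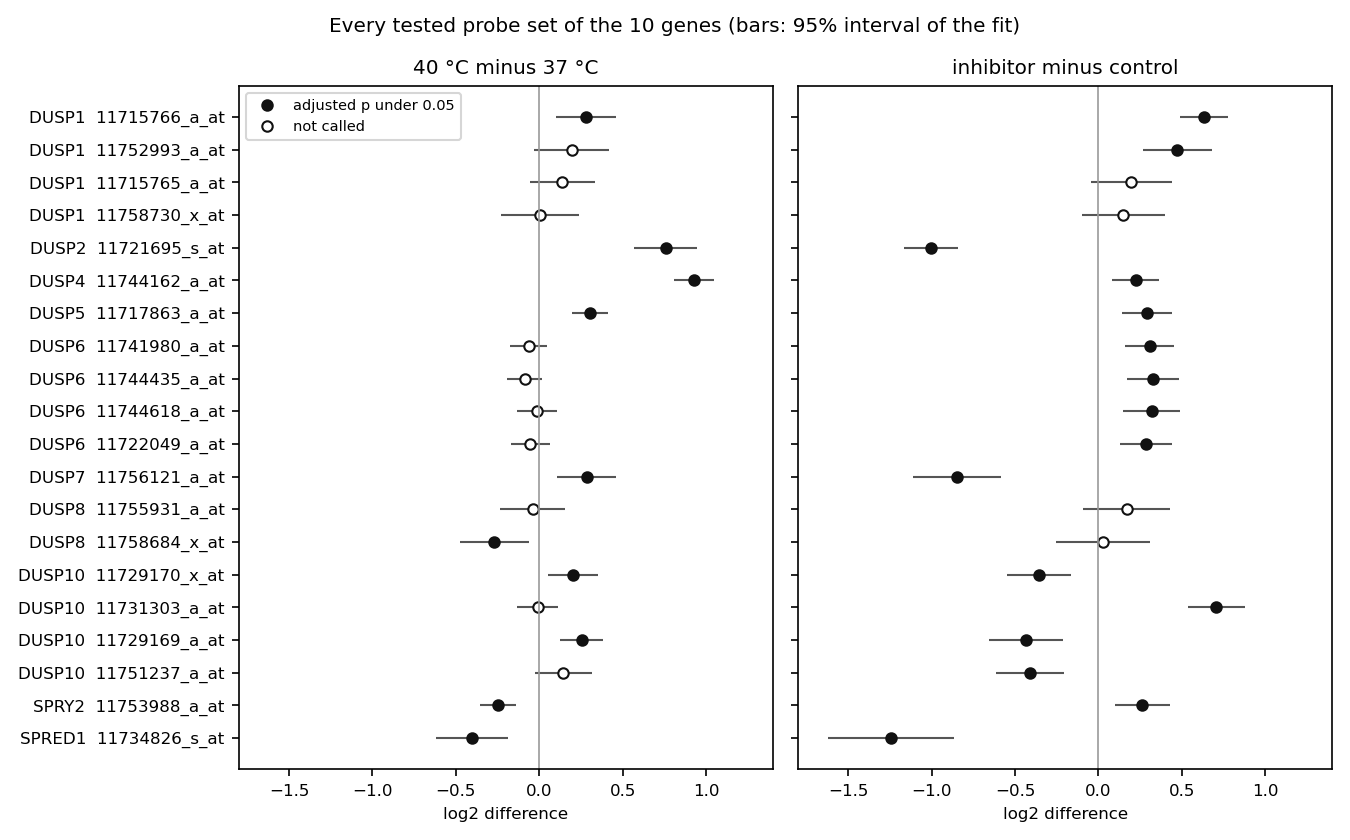
Log2 difference of each of the 20 tested probe sets, 40 °C minus 37 °C on the left and inhibitor minus control on the right; bars are 95% intervals of the fit, and filled points have an adjusted p under 0.05 over 31682 probe sets. The 4 DUSP6 probe sets lie between −0.09 and −0.02 on the left and between 0.28 and 0.33 on the right.

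Read probe set by probe set, 7 of the 20 were called higher at 40 °C and 3 lower, where 19.9% and 17.6% of all probe sets were. With the inhibitor 10 were higher and 6 lower, where 21.3% and 22% of all probe sets were. The plot of differences by probe set shows the 4 DUSP6 probe sets side by side and 1 DUSP10 probe set on the far side of 0 from the other 3 in the inhibitor comparison.

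**Figure D3:**
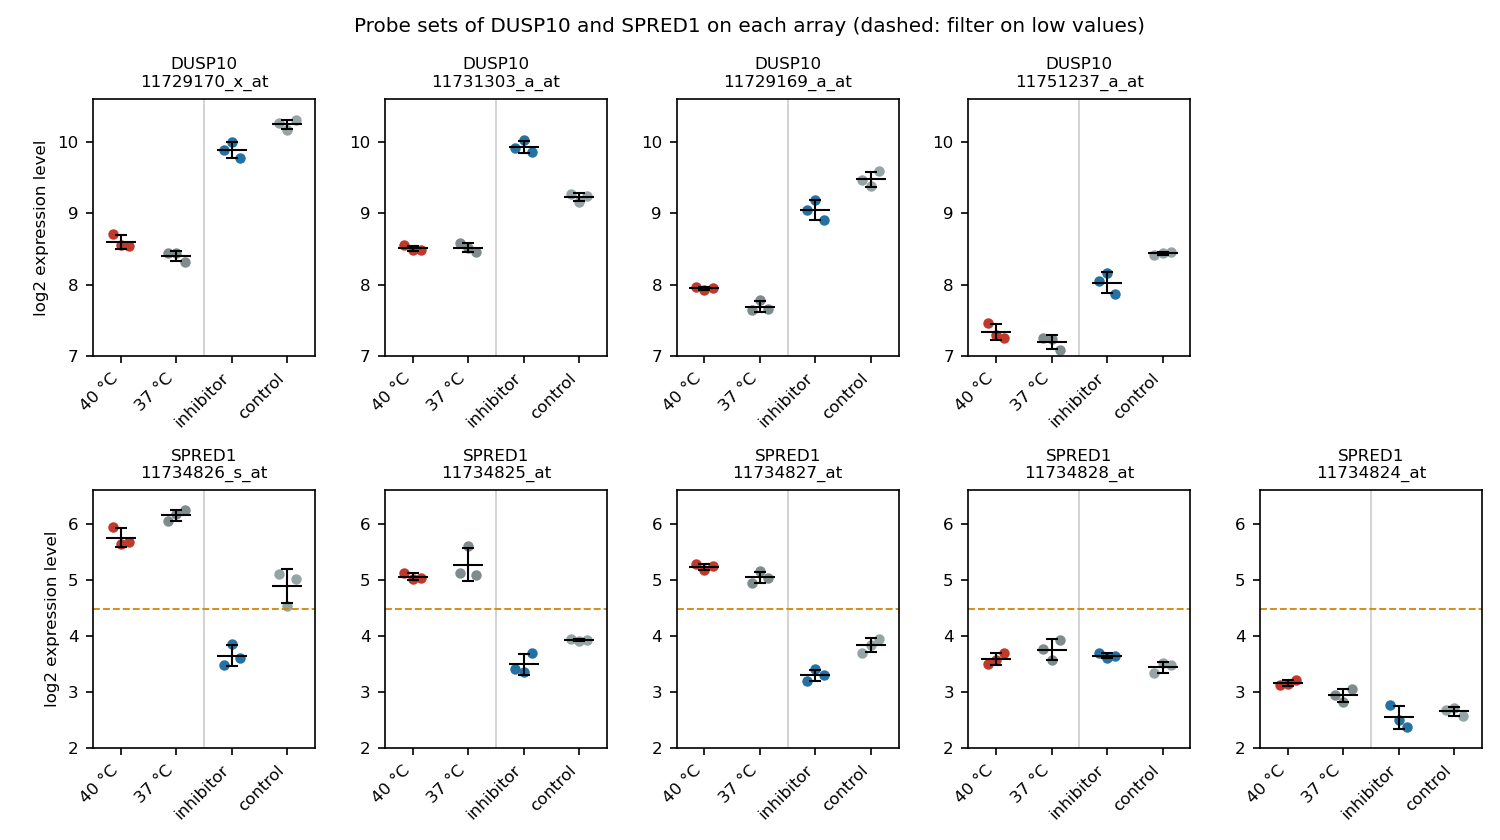
Log2 expression level of all 4 DUSP10 probe sets (upper row) and all 5 SPRED1 probe sets (lower row) on each array; bars and whiskers are the mean and SD of 3 arrays, and the dashed line in the lower row is the filter at 4.48. DUSP10 probe set 11731303_a_at is the only one of its row with inhibitor arrays above control arrays, and only 11734826_s_at of SPRED1 has control arrays above the dashed line.

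The plot of DUSP10 and SPRED1 probe sets sets these disagreements out array by array. For SPRED1, 3 of the 5 probe sets read higher in the temperature experiment than the dashed line, and 2 read below it in every group.

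No array was used in both comparisons, so their calls can be set side by side. Of the 10 genes, 8 were called in both, where 22.7% of all genes tested were. DUSP1, DUSP4 and DUSP5 were higher in both. At 40 °C the calls of DUSP1 and DUSP10 held under only 12 and 9 of the 17 alternative settings described below. On the probe set tested for the gene, SPRED1 was lower in both. Its inhibitor arrays (3.48 to 3.85) lay below the filter, which the probe set passed only through the temperature experiment. DUSP2 and DUSP7 were higher at 40 °C and lower with the inhibitor, as was the probe set of DUSP10 tested for the gene, and SPRY2 was lower at 40 °C and higher with the inhibitor. The split of 4 in the same and 4 in the opposite direction compares with 60.5% in the same direction among the 3163 genes called in both.

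Control cells and 40 °C cells, from the 2 experiments, were also set side by side. These values are a description, since the experiments differ in nucleofection and sorting as well as in treatment, which cannot be told apart here. DUSP1 averaged 10.83 in the control cells and 8.43 in the 40 °C cells, a difference of 2.40, and 101 of 13909 genes differed by more. DUSP5 averaged 11.03 in control cells and 8.92 in 40 °C cells (2.11), DUSP2 10.02 and 8.14 (1.88), and DUSP10 10.24 and 8.60 (1.64). On the probe sets tested for the genes, all 4 were thus several-fold higher in the control cells, by 3.12-fold to 5.28-fold. For each of these probe sets this is more than either difference within an experiment. Other probe sets differed less: DUSP10 probe set 11731303_a_at averaged 9.22 in control cells and 8.51 in 40 °C cells. DUSP1 probe set 11715765_a_at averaged 5.71 and 5.40. DUSP4 (0.35), DUSP7 (0.55), DUSP8 (0.37) and SPRY2 (−0.24) differed less, and for DUSP4, DUSP7, SPRY2 and SPRED1 a difference within an experiment was larger. DUSP6 and SPRED1 were lower in the control cells, by −0.64 and −0.86. The groups were apart for 9 of the 10 genes, as they were for 76.7% of all genes tested, and the median size of the difference was 0.75 over the 10 and 0.38 over all genes.

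From low to high, DUSP1, DUSP4 and DUSP5 had the order 37 °C, 40 °C, control, inhibitor, with no neighbouring groups overlapping. DUSP2 and the DUSP10 probe set tested for the gene had 37 °C, 40 °C, inhibitor, control, also without overlap. On DUSP10 probe set 11731303_a_at the inhibitor cells were highest, at 9.93, above 9.22 in controls, and the 40 °C and 37 °C arrays overlapped (means 8.51 and 8.52). SPRED1 had inhibitor, control, 40 °C, 37 °C and DUSP6 control, inhibitor, 40 °C, 37 °C, again without overlap. For DUSP7 the lowest 2 groups, inhibitor and 37 °C, overlapped, and for SPRY2 the middle 2, 40 °C and inhibitor, did. For DUSP8 both pairs of groups inside an experiment overlapped, and its control and 40 °C arrays met at 6.61.

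Across the 12 arrays the profiles fell into like and unlike pairs. The 12 arrays come from only 4 groups and 2 experiments, so these correlations are a description with no p. DUSP1 and DUSP5 were most alike (Pearson r = 0.9965), and DUSP2 and DUSP6 most opposed (r = −0.9738). Among all genes tested the closest profile was SLAMF7 for DUSP1 (r = 0.9978), CEBPA for DUSP2 (0.9971), PPID for DUSP4 (0.9957), CCL18 for DUSP5 (0.9991) and MTCH2 for DUSP6 (0.9923). It was RAB11A for DUSP7 (0.9794), PRSS21 for DUSP8 (0.9817), NDEL1 for DUSP10 (0.9969), B3GALNT2 for SPRY2 (0.9850) and TBL2 for SPRED1 (0.9952).

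The rest of the pathway gives the setting for these values. Over all genes tested, 21.6% were called higher and 17.7% lower at 40 °C, and 25.7% higher and 19.6% lower with the inhibitor. The list counts below are to be read beside these shares, and no list was tested against them. Of 14 tested genes of the RAS to ERK cascade, 1 was called higher and 3 lower at 40 °C (median difference −0.07), and 6 higher and 2 lower with the inhibitor (median 0.12). At 40 °C the 3 with the smallest p were NF1, RPS6KA3, an ERK-activated kinase (1.21-fold lower), and MAP2K1, the kinase that activates ERK (1.11-fold higher). With the inhibitor they were HRAS (1.44-fold higher), RPS6KA1 (1.34-fold lower) and MAP2K1 (1.25-fold higher). Some genes of these lists are not analysed here.

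Of 13 genes of the JNK and p38 cascade, 5 were higher and 1 lower at 40 °C, and 5 higher and 2 lower with the inhibitor (medians 0.01 and 0.17). MAP2K3, a kinase that activates p38, was higher in both, by 1.25-fold at 40 °C and 1.29-fold with the inhibitor. MAPKAPK3, a kinase downstream of p38, and MAP3K5, a stress-activated kinase at the top of the cascade, were 1.32-fold and 1.33-fold higher at 40 °C. With the inhibitor MAPK9, a JNK, was 1.24-fold lower and MAP3K1 1.21-fold higher.

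Of 14 tested transcription targets of ERK, 2 were higher and 5 lower at 40 °C (median −0.03), and 8 were higher and 2 lower with the inhibitor (median 0.22). The immediate early factors EGR3 and EGR1 were 2.18-fold and 1.91-fold lower at 40 °C and the cyclin CCND1 1.28-fold higher, while FOS differed by 0.02 (SE 0.04) and was not called. With the inhibitor FOS was 5.11-fold higher, IER2 1.95-fold and CCND1 1.57-fold. Genes of AU-rich element binding proteins, which control the decay of short-lived messages such as that of DUSP1, gave 2 higher and 1 lower of 7 at 40 °C and 4 higher and 1 lower with the inhibitor. ZFP36, which promotes decay of such messages, differed by −0.03 (SE 0.05) at 40 °C and was 2.10-fold higher with the inhibitor. At 40 °C ELAVL1 was 1.22-fold and ZFP36L1 1.14-fold higher and HNRNPD 1.26-fold lower, and with the inhibitor ZFP36L2 was 1.33-fold higher and KHSRP 1.27-fold lower.

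The atypical dual specificity phosphatases, small enzymes without the kinase-binding domain of the members, had 1 higher and 4 lower of 13 at 40 °C and 2 higher and 3 lower with the inhibitor (medians −0.003 and 0.02). STYX, a catalytically dead relative, was 1.47-fold lower at 40 °C, DUSP11 1.27-fold and DUSP12 1.25-fold lower. With the inhibitor DUSP13B was 1.60-fold and DUSP14 1.22-fold lower, and DUSP18 1.21-fold higher.

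**Figure D4:**
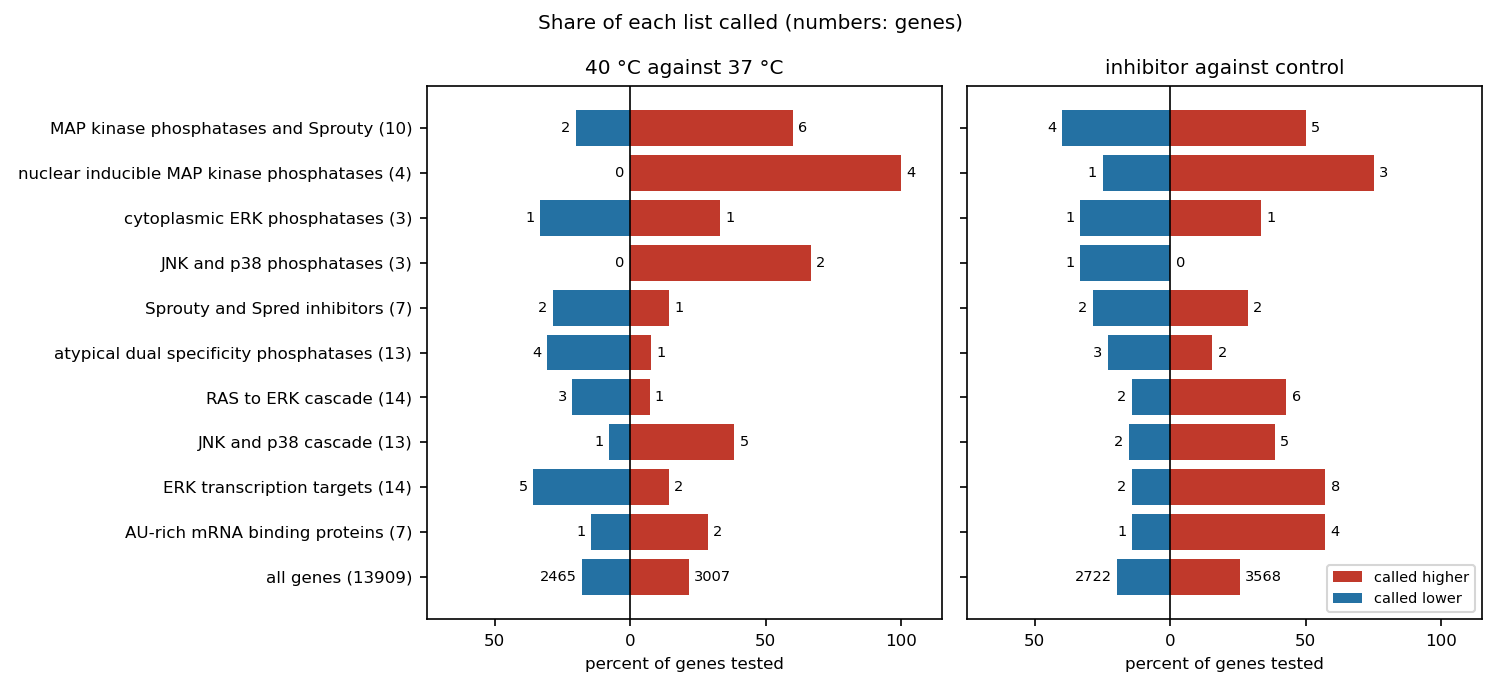
Percent of the tested genes of each list that were called higher (right of 0) or lower (left of 0), at 40 °C against 37 °C and with the inhibitor against control; numbers are genes, the number tested is in parentheses, and the bottom row is all genes. The top row is the 10 genes described here, with 6 higher and 2 lower at 40 °C and 5 higher and 4 lower with the inhibitor.

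The plot of list shares places the 10 genes beside their relatives and the upstream kinases. The nuclear list consists of 4 of the 10 genes and is no separate evidence.

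**Figure D5:**
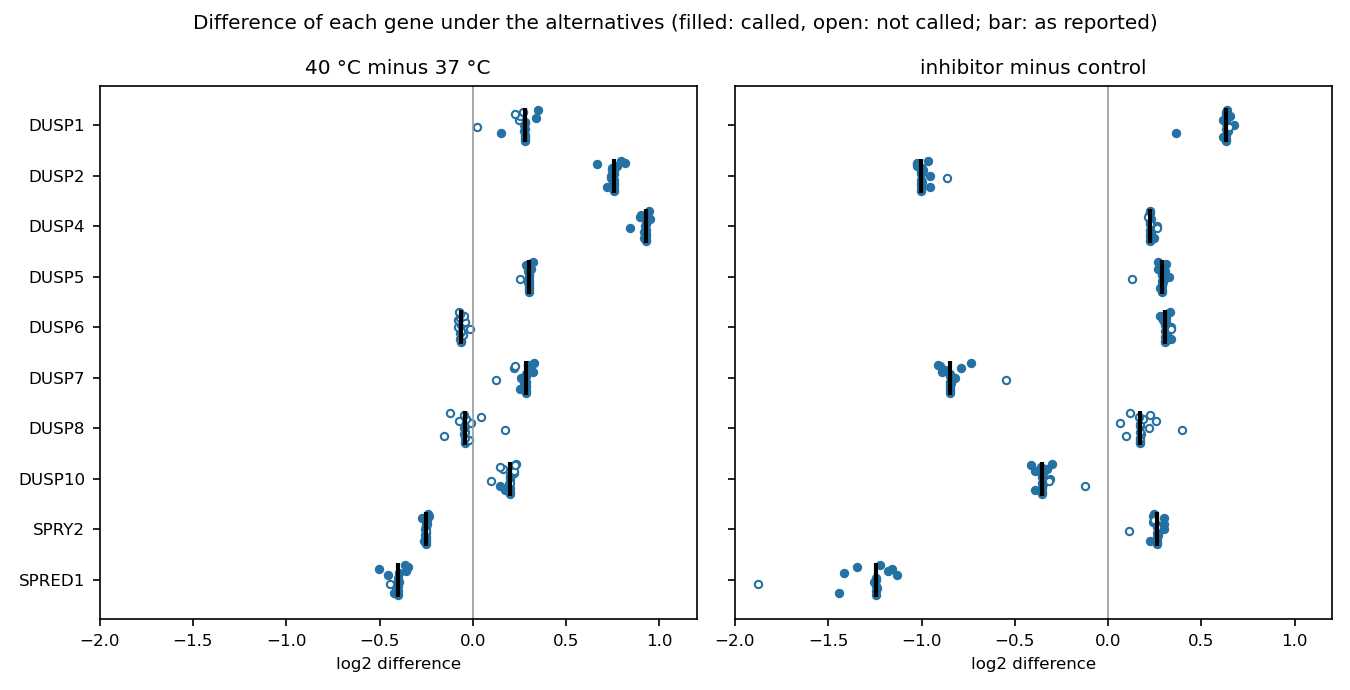
Log2 difference of each gene as computed (black bars) and under up to 17 alternative settings (points; filled where the adjusted p was under 0.05, open where not), 40 °C minus 37 °C on the left and inhibitor minus control on the right. DUSP2 and DUSP4 on the left are filled in all 17 settings.

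The plot of alternatives shows which values rest on a choice. At 40 °C DUSP2 and DUSP4 were called under all 17 alternatives, DUSP5 and SPRY2 under 16, DUSP7 under 15, SPRED1 under 14 of 15, DUSP1 under 12 and DUSP10 under 9. With the inhibitor DUSP1, DUSP2, DUSP5, DUSP6 and DUSP7 were called under 16 of 17 and SPRED1 under 14 of 15. DUSP10 was called under 15, and DUSP4 and SPRY2 under 14. For a member, the setting with every probe set keeps the same probe set, so its difference cannot change there. Averaging is the only setting that draws on a gene's other probe sets. The DUSP10 count therefore says little about probe set 11731303_a_at, which was called higher with the inhibitor.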

How the data were processed

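The authors deposited log2 expression values of 49395 probe sets on 12 arrays, a scale read from the values; per the labels' protocols the arrays were PrimeView arrays of biotin-labelled Trizol RNA. Details of the authors' background correction, normalization and software were not given in the sources used here. Symbols came from the platform's gene table. A gene was represented by the probe set of 1 symbol with the highest mean over 12 arrays, and 13909 of 18132 genes passed a filter at the 30th percentile of non-control probe sets (log2 4.48). Probe sets were also tested singly (31682).

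Each comparison was fitted alone with limma 3.58.1 in R 4.3.3 (lmFit, eBayes, two-sided, Benjamini-Hochberg over all genes, threshold 0.05) across all genes, without a block. With 3 arrays against 3, an exact permutation test cannot go below p = 0.1, so none was run; precision is limited by having 3 arrays a group. The fit was first tested on simulated data with 50 changed genes of each size. Log2 changes of 0.25 were recovered in 46% of genes for temperature and 20% for the inhibitor. For changes of 0.5 these shares were 78% and 76%, and for changes of 1 they were 98% and 96%. Small differences can thus be missed. The simulation changed only 200 genes, far fewer than were called in the data. Its shares may therefore not hold for the reported fits. Folds are 2 to the power of the log2 difference.

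Members, lists, tests and alternatives were chosen with earlier results of these data known. The genes named are all members with their probe sets, the 3 called genes of smallest p in each other list, near relatives (DUSP9, DUSP16, the other Sprouty and Spred genes), FOS, ZFP36, HSPA1B and HSPH1, and for each member the gene of highest Pearson r. Alternatives were a joint fit of 12 arrays, the replicate number as a block, other filters, averaged probe sets per gene, every probe set, quantile normalization, median centring, trend and robust eBayes, array weights, the poly-A spike level as a covariate, and leaving out each array. Lists and figures were made in Python 3.11.15 (pandas 2.3.3, NumPy 2.4.6), with matplotlib 3.10.9 for drawing.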

Additional observations from a re-analysis of the deposited data

How the results depend on the processing

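Of the differences of single genes under the alternatives, 302 kept their direction and side of the threshold, 32 lost a call and 2 changed sign. Both sign changes were of DUSP8 at 40 °C. Its value for the gene was never called, although a fainter probe set tested singly was called lower. The differences for the gene were 0.17 with the spike covariate, and −0.12 to 0.045 on leaving out 1 array, positive without replicate 1 at 40 °C. The spike covariate, whose arrays differ between the groups in both experiments (7.21 to 7.27 at 40 °C and 7.14 to 7.20 at 37 °C), left 2 of the 10 genes called higher and 0 lower at 40 °C, and 0 higher and 0 lower with the inhibitor; over all genes it left 999 higher and 1250 lower at 40 °C, and 43 higher and 158 lower with the inhibitor. At 40 °C 5 of the 10 genes had an unadjusted p under 0.05 with it. Spike levels did not overlap between the groups of either experiment, so spike level and group are confounded in these fits. The cause was not tested. With probe sets averaged per gene 1 of the 10 was lower at 40 °C and 2 with the inhibitor, and with the 50th percentile filter 1 was lower at 40 °C; under both SPRED1 no longer passed the filter. With every probe set tested 6302 were higher and 5583 lower at 40 °C, and 6752 and 6965 with the inhibitor, out of more features, and array weights gave 5527 genes higher with the inhibitor.

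Leaving out 1 array at a time gave 3 to 6 of the 10 genes higher and 2 lower at 40 °C, and 3 to 5 higher and 4 lower with the inhibitor. The low ends came without replicate 1 at 40 °C and without replicate 3 of the controls. The lower genes with the inhibitor include SPRED1, whose inhibitor arrays lay below the filter. Over all genes the ranges were 2443 to 2779 higher and 2037 to 2406 lower at 40 °C, and 2805 to 4025 higher and 2207 to 2935 lower with the inhibitor. With the replicate number as a block, 3 of the 10 genes were higher with the inhibitor, and DUSP4 (adjusted p = 0.0737) and SPRY2 (0.0671) lost their calls. Correlations of the deviations of same-numbered arrays from their group means were −0.13, −0.10 and 0.23 for temperature and −0.19, −0.60 and −0.15 for the inhibitor. Those of differently numbered arrays ran from −0.28 to 0.33 and from −0.36 to 0.46. Deviations within a group cancel out, so these values depend on each other. They cannot show whether same-numbered arrays were prepared together, which the labels do not state. Levels near or below the filter, as for SPRED1, limit what these arrays show.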

Other observations

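A further probe set, 11758143_s_at, carries the symbols of both DUSP8 and the pseudogene GLUD1P3 and was therefore not tested as DUSP8. It read 6.03, 5.58 and 5.58 at 40 °C, against 6.36, 6.55 and 6.29 at 37 °C, and 6.58, 6.59 and 6.21 with the inhibitor, against 5.91, 5.84 and 5.93 in controls. Its groups did not overlap in either experiment, unlike those of the DUSP8 probe set tested for the gene. The fainter probe set of DUSP8 alone, 11758684_x_at, was also apart and lower at 40 °C (4.62 to 4.94, against 5.05 to 5.17 at 37 °C). With the inhibitor that fainter probe set overlapped its controls. Which of the 2 transcripts 11758143_s_at reads is not known here.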
